A study of Arabidopsis thaliana with 12 samples.

Results

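DFR (AT5G42800), UF3GT (AT5G54060) and AT4G14090 encode enzymes of the late steps of anthocyanin synthesis in Arabidopsis thaliana. They were chosen by name for that role, with earlier results of these data known. Each was read from the probe set that the array annotation pairs with it alone. They are 3 of the 13356 genes with such a probe set among the 22810 probe sets on the array, and 3 of the 7231 genes with a probe set bright enough to be tested.

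The arrays held RNA of whole 21-day-old plants in the vegetative stage, in 4 groups of 3. ARR22-ox plants, which overexpress the type-C response regulator ARR22, were given the natural cytokinin t-zeatin at 20 µM for 3 h or were left without treatment. Wild-type Col-0 plants were given the same t-zeatin or were left without treatment. The untreated groups received no mock treatment, so the hormone and the handling that came with it cannot be told apart. A t-zeatin response here covers both. The promoter behind ARR22-ox and the number of lines are not given in the sources used here. Whether the arrays of 1 group hold RNA of separate plants is not stated in the labels, so a p-value here measures array-to-array spread only, which may be technical.

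Anthocyanins are pigments that plants make from phenylalanine by way of chalcones, flavanones and dihydroflavonols. DFR, dihydroflavonol reductase, commits dihydroflavonols to the anthocyanin branch and competes for them with flavonol synthesis. The pigments are then decorated in turn: UF3GT, annotated in RefSeq as a flavonoid glucosyltransferase and also named UGT79B1, is known to add xylose to the sugar at position 3, and the AT4G14090 product adds glucose at position 5. In Arabidopsis these late genes are switched on by complexes of MYB, bHLH and WD40 proteins, and added cytokinin is known to raise anthocyanin in Arabidopsis seedlings.

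ARR22 itself had signals of 2792, 2752 and 3132 in ARR22-ox t-zeatin, 2857, 3248 and 3661 in ARR22-ox untreated, 0.397 to 0.585 in Col-0 t-zeatin and 0.638 to 1.92 in Col-0 untreated, so every array matched its genotype label. Signals are the deposited MAS5 intensities, scaled by the authors to 1 level on every array. ARR22-ox untreated replicate 3 stood apart. Its ratio of 3′ to 5′ signal was 1.82 for GAPDH and 3.47 for the second actin control, against 0.882 to 1.08 and 1.18 to 1.38 on the other 11 arrays. Changes of the 3 late genes that rest on that array are given with and without it, as are most of those of other listed genes. Medians over gene lists, differences between the 3 genes and changes of genes picked for a like pattern are given with it only.

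DFR had signals of 78.0, 84.7 and 80.5 in ARR22-ox t-zeatin and 1066, 1272 and 239 in ARR22-ox untreated. In Col-0 it had 62.8, 55.9 and 53.4 after t-zeatin and 118, 139 and 144 untreated. The 4 groups did not overlap: ARR22-ox untreated was highest, followed by Col-0 untreated, ARR22-ox t-zeatin and Col-0 t-zeatin. The lowest ARR22-ox untreated array, replicate 3, was still above the highest Col-0 untreated array.

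UF3GT had signals of 56.4, 29.7 and 45.1 in ARR22-ox t-zeatin and 451, 440 and 167 in ARR22-ox untreated. Its Col-0 signals were 25.4, 28.4 and 32.6 after t-zeatin and 43.3, 32.3 and 33.6 untreated. Only the ARR22-ox untreated arrays stood clear of the rest. The order of the other groups by mean was ARR22-ox t-zeatin, Col-0 untreated and Col-0 t-zeatin, and neighbours in that order overlapped.

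AT4G14090 had signals of 47.4, 38.8 and 31.4 in ARR22-ox t-zeatin and 485, 540 and 201 in ARR22-ox untreated. The Col-0 signals were 28.3, 22.8 and 28.8 after t-zeatin and 33.9, 40.6 and 27.0 untreated. As for UF3GT, ARR22-ox untreated stood clear of all other arrays, and the other groups followed in the same order by mean, each overlapping its neighbour. The levels of UF3GT and AT4G14090 outside ARR22-ox untreated lay near the lowest mean signal kept for testing, 24.25.

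**Figure D1:**
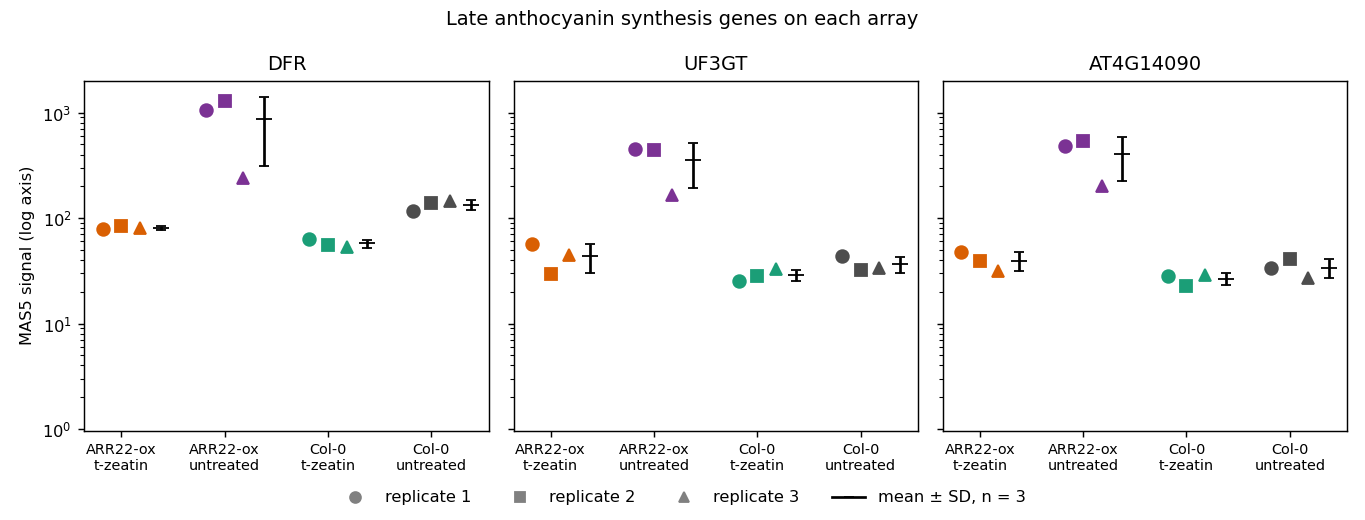
MAS5 signal (log axis) of DFR, UF3GT and AT4G14090 on each of the 12 arrays, by group, with the mean and SD of 3 arrays beside each group. For all 3 genes every ARR22-ox untreated array lies above all arrays of the other groups, and replicate 3 of that group (triangle) lies below its replicates 1 and 2.

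The first comparison asked how t-zeatin changed these genes in ARR22-ox plants. All 3 fell. AT4G14090 fell most, to 39.2 ± 8.02 in ARR22-ox t-zeatin against 409 ± 182 in ARR22-ox untreated (SD, n = 3 arrays each), which is 9.70-fold lower. DFR was 8.48-fold lower and UF3GT 7.60-fold lower. In log2 units the changes were -3.28 ± 0.31 for AT4G14090, -3.08 ± 0.45 for DFR and -2.93 ± 0.34 for UF3GT (SE; limma with Benjamini-Hochberg adjustment over 13648 probe sets, adjusted p = 3.876e-06, 0.0001192 and 1.844e-05).

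A fall was a frequent result in this comparison: 25.1% of tested probe sets were called lower, and 27% had all 3 t-zeatin arrays below all 3 untreated ones. A fall of this size was not frequent. Only 6 tested probe sets, AT4G14090 included, fell by as much as AT4G14090, 10 by as much as DFR and 12 by as much as UF3GT. These ranks, and those given below, only describe genes chosen with earlier results of these data known. They are no independent support. Without ARR22-ox untreated replicate 3 the changes were -3.73 for AT4G14090, -3.85 for DFR and -3.40 for UF3GT, so DFR then fell most. In RNA of whole plants, fewer cells that express a gene and less of its RNA per cell cannot be told apart.

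The second comparison asked what the same treatment did in wild-type plants. DFR fell to 57.4 ± 4.85 in Col-0 t-zeatin against 133 ± 13.9 in Col-0 untreated (SD, n = 3 arrays each), 2.32-fold lower (log2 change -1.22 ± 0.45, SE; limma adjusted p = 0.04287). All 3 t-zeatin arrays lay below all 3 untreated ones, as they did for 31.2% of tested probe sets, and 21.1% were called lower. UF3GT, with 28.8 ± 3.62 in Col-0 t-zeatin and 36.4 ± 5.97 in Col-0 untreated, did not pass (log2 change -0.33 ± 0.34, limma adjusted p = 0.4517). Nor did AT4G14090, with 26.6 ± 3.31 in Col-0 t-zeatin and 33.8 ± 6.77 in Col-0 untreated (log2 change -0.33 ± 0.31, limma adjusted p = 0.4144). For both, the groups overlapped.

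DFR's call in Col-0 depended on the error estimate, which the 4 groups share: the SE of this change was 0.45 with all arrays and 0.09 without ARR22-ox untreated replicate 3. The limma adjusted p was 1.06e-08 without that array and 3.796e-07 with only the 6 Col-0 arrays in the fit. It missed the threshold when any Col-0 array or any ARR22-ox t-zeatin array was removed (up to 0.1086). UF3GT and AT4G14090 did not pass without ARR22-ox untreated replicate 3 either (limma adjusted p = 0.1307 and 0.09031).

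The third comparison set the ARR22-ox response against the Col-0 response. All 3 genes responded further downwards in ARR22-ox, by -2.95 ± 0.44 for AT4G14090, -2.59 ± 0.48 for UF3GT and -1.87 ± 0.63 for DFR (log2 difference of responses, SE; limma adjusted p = 0.0001671, 0.0007726 and 0.02925). Of all tested probe sets 45.6% were called in either direction and 24.5% lower in this sense. As many as 183 tested probe sets had a difference as far down as that of DFR, against 30 for UF3GT and 16 for AT4G14090. Without ARR22-ox untreated replicate 3 the differences were -3.40 for AT4G14090, -3.07 for UF3GT and -2.63 for DFR.

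For DFR this call did not survive the removal of a single array in 9 of 12 cases (limma adjusted p between 0.05044 and 0.06588), the exceptions being replicate 3 of Col-0 t-zeatin, of Col-0 untreated and of ARR22-ox untreated. UF3GT and AT4G14090 kept their calls whichever array was removed.

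The fourth comparison asked how the genotypes differed without added hormone. All 3 genes were higher in ARR22-ox untreated than in Col-0 untreated, AT4G14090 by 11.2-fold, UF3GT by 8.90-fold and DFR by 5.17-fold. The log2 differences were 3.49 ± 0.31, 3.15 ± 0.34 and 2.37 ± 0.45 (SE; limma adjusted p = 2.027e-06, 9.514e-06 and 0.0008603). Of all tested probe sets 24.5% were called higher, and 25.9% had every ARR22-ox array above every Col-0 array. For 15 tested probe sets the difference was as large as that of AT4G14090, for 21 as large as that of UF3GT and for 57 as large as that of DFR. Without ARR22-ox untreated replicate 3 the differences were 3.94, 3.63 and 3.13. These are the same ARR22-ox untreated arrays that enter the ARR22-ox response, so the high untreated level and the fall after t-zeatin are not separate evidence. The Col-0 untreated arrays likewise enter both this comparison and the Col-0 response.

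The fifth comparison asked how far the genotypes differed once both had received t-zeatin. DFR averaged 81.1 ± 3.39 in ARR22-ox t-zeatin and 57.4 ± 4.85 in Col-0 t-zeatin (SD, n = 3 arrays each). UF3GT averaged 43.7 ± 13.4 in ARR22-ox t-zeatin and 28.8 ± 3.62 in Col-0 t-zeatin. AT4G14090 averaged 39.2 ± 8.02 in ARR22-ox t-zeatin and 26.6 ± 3.31 in Col-0 t-zeatin. The log2 differences were 0.50 ± 0.45 for DFR, 0.56 ± 0.34 for UF3GT and 0.54 ± 0.31 for AT4G14090, and none passed (SE; limma adjusted p = 0.3763, 0.1854 and 0.1653), while 51% of tested probe sets were called in either direction and 23.1% higher. The ARR22-ox arrays all lay above the Col-0 arrays for DFR and AT4G14090, as for 31.6% of tested probe sets, and the groups overlapped for UF3GT.

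This result also turned on the shared variance. Without ARR22-ox untreated replicate 3, which is in neither group compared, the same differences passed for all 3 genes (limma adjusted p = 0.0001756 for DFR, 0.01366 for UF3GT and 0.007928 for AT4G14090), where 29.3% of tested probe sets were called higher. They also passed with only the 6 t-zeatin arrays in the fit (limma adjusted p = 0.0005625, 0.02986 and 0.01435), where 29.6% were called higher.

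**Figure D2:**
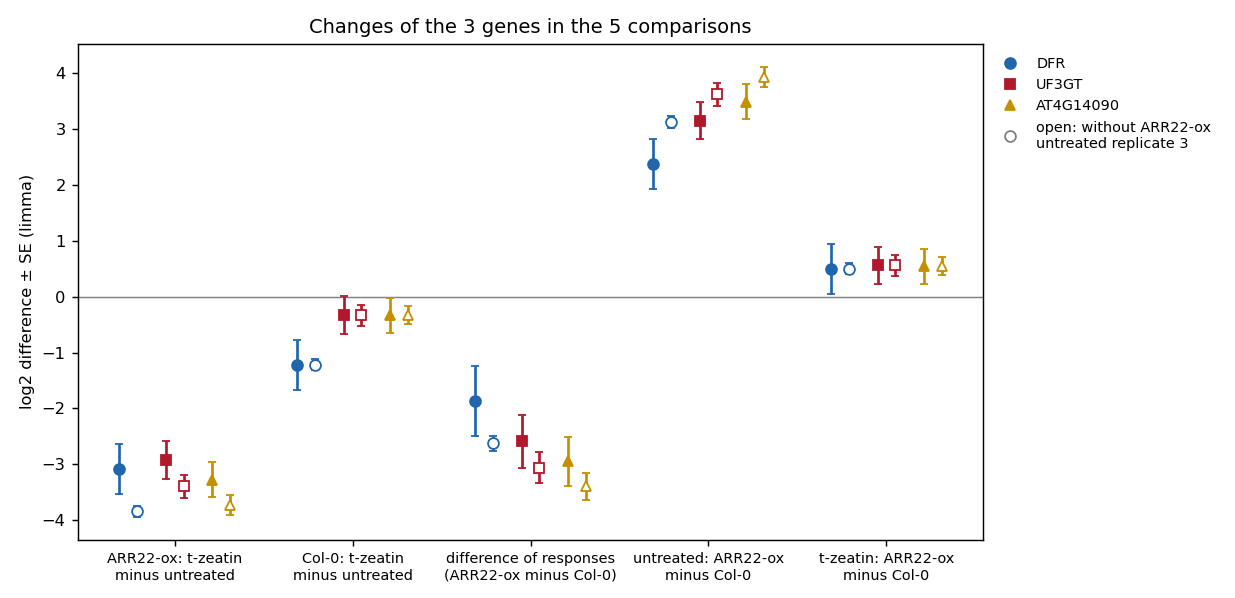
Log2 differences with the limma SE for DFR, UF3GT and AT4G14090 in the 5 comparisons, from all 12 arrays (filled) and without ARR22-ox untreated replicate 3 (open). The 3 genes lie between -3.28 and -2.93 in the ARR22-ox response and between 2.37 and 3.49 in untreated ARR22-ox against Col-0. In the Col-0 response DFR lies at -1.22 and both other genes at -0.33.

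The 3 genes were also compared with each other, as differences between their log2 changes. In the Col-0 response the log2 change of DFR minus that of UF3GT was -0.88, and minus that of AT4G14090 it was also -0.88. The t-zeatin and untreated arrays did not overlap in either. The exact two-sided permutation test gave p = 0.1 for both, the smallest that 3 arrays against 3 allow, and 0.4 after adjustment over the 12 tests. In untreated ARR22-ox against Col-0 the log2 difference of DFR minus that of AT4G14090 was -1.12, again with no overlap (exact permutation p = 0.1, adjusted p = 0.4). None of the 12 tests could pass, because the smallest p this test allows lies above the threshold for calls even before adjustment. The test therefore cannot decide whether the genes differed in their changes, and the differences only describe these arrays. The changes of UF3GT and AT4G14090 differed by 0.35 or less on the log2 scale in each of the 4 comparisons, with exact p from 0.4 to 1.

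On ARR22-ox untreated replicate 3 all 3 genes were low for their group. Against the mean log2 signal of replicates 1 and 2, DFR was 4.87-fold lower on replicate 3, UF3GT 2.67-fold lower and AT4G14090 2.55-fold lower. Only 0.403% of tested probe sets were as low on that array as DFR, against 1.89% for UF3GT and 2.25% for AT4G14090. The coefficient of variation of DFR was 63.6% in ARR22-ox untreated, against 4.18% in ARR22-ox t-zeatin, 8.46% in Col-0 t-zeatin and 10.4% in Col-0 untreated. The part of RNA quality in these values was not tested.

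The other genes of flavonoid synthesis came from 9 lists of 60 genes, from the entry into phenylpropanoid metabolism to regulators of the late genes. A probe set was paired with 1 of them alone for 9 genes, and 5 of these passed the filter on dim probe sets. The others were not analysed here, and no activator on the lists is among the 9. In the ARR22-ox response 3 of the 5 fell and none rose, with a median log2 change of -1.34 against -0.000457 over all tested probe sets (50.3% called in either direction). In Col-0 3 rose and 1 fell, with a median of 0.52 against 0.0129 (44.8% called in either direction and 23.7% higher). Untreated, 4 were higher in ARR22-ox and 1 lower, with a median of 1.64 against 0.00825 (48.5% called). After t-zeatin 1 was higher in ARR22-ox and 2 were lower, with a median of -0.41 against -0.0497 (51% called).

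CHIL, a chalcone isomerase-like protein of the early pathway, had signals of 79.7, 80.9 and 78.2 in ARR22-ox t-zeatin and 452, 517 and 232 in ARR22-ox untreated. The Col-0 arrays gave 89.4, 113 and 118 after t-zeatin and 104, 107 and 127 untreated. It fell in ARR22-ox (log2 change -2.25 ± 0.23, SE; limma adjusted p = 8.198e-06) and did not pass in Col-0 (-0.08, limma adjusted p = 0.8153). Untreated, it was 3.39-fold higher in ARR22-ox than in Col-0 (log2 difference 1.76, limma adjusted p = 5.843e-05). These were -2.60 for the ARR22-ox response and 2.11 for the untreated difference without ARR22-ox untreated replicate 3. CHIL thus had the same calls as UF3GT and AT4G14090 in both responses and in the untreated comparison. After t-zeatin its ARR22-ox arrays all lay below its Col-0 arrays, while UF3GT and AT4G14090 averaged higher in ARR22-ox. That difference of CHIL did not pass (log2 difference -0.41, limma adjusted p = 0.1609). It passed with only the t-zeatin arrays in the fit (limma adjusted p = 0.003635).

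UGT78D2, which adds glucose at position 3 of anthocyanidins and flavonols, had signals of 86.1, 93.2 and 80.2 in ARR22-ox t-zeatin and 262, 329 and 157 in ARR22-ox untreated. Its Col-0 signals were 114, 106 and 110 after t-zeatin and 72.3, 80.6 and 77.1 untreated. It fell in ARR22-ox (log2 change -1.47 ± 0.20, SE; limma adjusted p = 7.166e-05), or -1.77 without ARR22-ox untreated replicate 3. In Col-0 it rose, with all t-zeatin arrays above all untreated ones (log2 change 0.52, limma adjusted p = 0.04988). That call was lost under 5 other settings and without any of 10 single arrays (limma adjusted p up to 0.1295). It was kept without ARR22-ox untreated replicate 3 (limma adjusted p = 0.0001264) and with only the Col-0 arrays in the fit (limma adjusted p = 0.0001851). After t-zeatin UGT78D2 was lower in ARR22-ox than in Col-0 without passing (log2 difference -0.35, limma adjusted p = 0.166). With only the t-zeatin arrays in the fit that difference passed (limma adjusted p = 0.0027).

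Of the flavonol branch, UGT78D1 moved in opposite directions in the 2 genotypes. This enzyme, which adds rhamnose at position 3 of flavonols, gave signals of 57.0, 61.7 and 59.98 in ARR22-ox t-zeatin and 168, 174 and 118 in ARR22-ox untreated. The Col-0 arrays gave 100, 98.2 and 104 after t-zeatin and 42.0, 45.1 and 54.7 untreated. It fell in ARR22-ox (log2 change -1.34 ± 0.15, SE; limma adjusted p = 1.205e-05) and rose in Col-0 (1.10 ± 0.15, SE; limma adjusted p = 6.848e-05), with no overlap in either. The ARR22-ox change was -1.52 without ARR22-ox untreated replicate 3. After t-zeatin it was 1.69-fold lower in ARR22-ox than in Col-0 (limma adjusted p = 0.000875).

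AT1G06000, placed in the flavonol list, rose in Col-0 as well, to 155 ± 12.3 in Col-0 t-zeatin against 62.8 ± 6.38 in Col-0 untreated (SD, n = 3 arrays each; limma adjusted p = 0.0008561). In ARR22-ox it had 86.7, 98.2 and 106 after t-zeatin and 181, 190 and 84.4 untreated, which overlap through replicate 3. The change there was -0.56 (limma adjusted p = 0.07084), or -0.94 without that array (limma adjusted p = 1.386e-06). After t-zeatin AT1G06000 was lower in ARR22-ox than in Col-0 (log2 difference -0.68, limma adjusted p = 0.03246). That call was lost without any of 5 single arrays (limma adjusted p up to 0.1031). AT1G23390, placed in the list of Kelch-repeat F-box genes, ran the other way. It fell to 204 ± 21.5 in Col-0 t-zeatin against 647 ± 31.5 in Col-0 untreated (limma adjusted p = 1.336e-07), and had 246 ± 17.0 in ARR22-ox t-zeatin and 219 ± 19.9 in ARR22-ox untreated (limma adjusted p = 0.1767, or 0.07842 without ARR22-ox untreated replicate 3).

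The other 4 genes with a probe set were below the filter. AT5MAT, which adds malonate to the glucose that the AT4G14090 enzyme attaches, had signals of 16.2, 17.7 and 16.5 in ARR22-ox t-zeatin and 88.3, 74.9 and 33.5 in ARR22-ox untreated. Its Col-0 signals were 15.7, 15.6 and 18.4 after t-zeatin and 10.7, 10.7 and 13.3 untreated. In a fit without the filter, chosen after its values were seen, it fell in ARR22-ox (log2 change -1.85, limma adjusted p = 0.0004496, 32% of 22746 probe sets called) and did not pass in Col-0 (0.52, limma adjusted p = 0.2488, 26.7% called). Its response was further down in ARR22-ox than in Col-0 by -2.37 (limma adjusted p = 0.001062, 28.3% called). Without ARR22-ox untreated replicate 3 the ARR22-ox change was -2.28, the difference of responses was -2.80, and the rise in Col-0 passed (limma adjusted p = 0.04643).

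TRY, a small MYB protein of the repressor list, had signals of 9.21, 2.19 and 6.87 in ARR22-ox t-zeatin and 21.6, 19.7 and 18.4 in ARR22-ox untreated. In Col-0 t-zeatin it had 16.7, 24.9 and 20.2, and in Col-0 untreated 17.5, 17.0 and 12.5. The ARR22-ox t-zeatin arrays lay below all others, at signals far under the filter. In the fit without the filter, also chosen after its values were seen, TRY fell in ARR22-ox (log2 change -1.94, limma adjusted p = 0.004042) and was lower in ARR22-ox t-zeatin than in Col-0 t-zeatin (-1.97, limma adjusted p = 0.003253). Its Col-0 response did not pass (limma adjusted p = 0.5823), and the difference of responses was -2.33 (limma adjusted p = 0.01208). The ARR22-ox change was -1.99 without ARR22-ox untreated replicate 3, and -0.71 with an offset of 16 before log2 (limma adjusted p = 0.001129). UGT78D3 and BAN averaged 2.15 or less in every group.

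**Figure D3:**
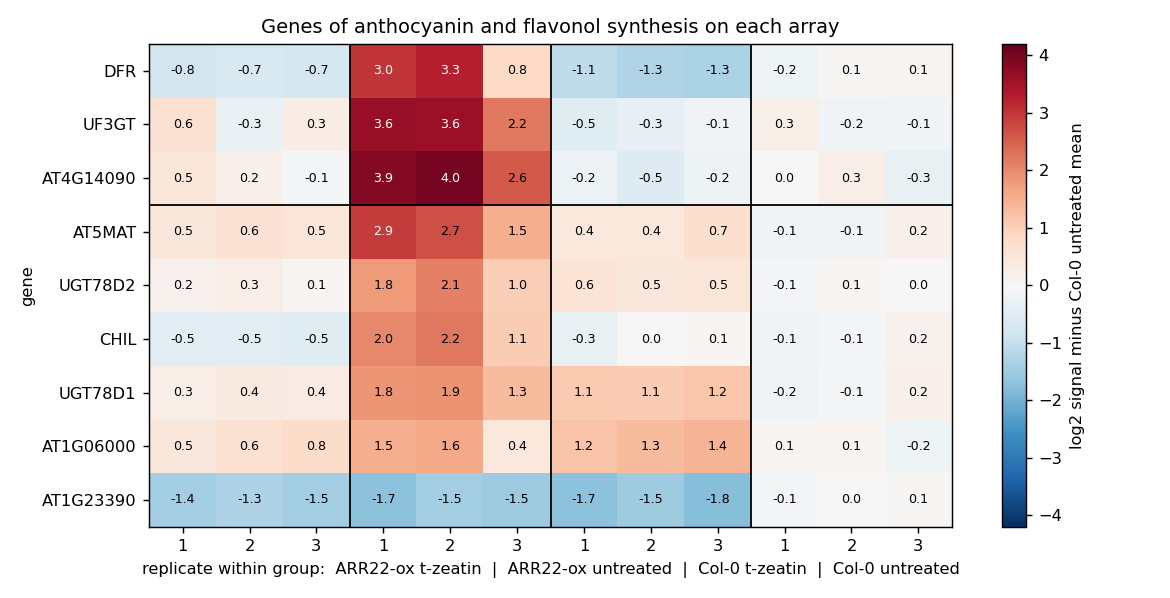
Log2 signal minus the Col-0 untreated mean of the same gene, on each array, for the 3 late genes (above the line) and 6 other genes of the flavonoid lists. In ARR22-ox untreated, replicates 1 and 2 of DFR, UF3GT and AT4G14090 lie 3.0 to 4.0 above the Col-0 untreated mean and replicate 3 lies 0.8 to 2.6 above it. UGT78D1 and AT1G06000 are also raised in Col-0 t-zeatin.

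Likeness of pattern was measured as the mean of a gene's Pearson correlations with the 3 late genes over the log2 signals of the 12 arrays, among 7202 genes. The values only describe these 12 arrays, which fall into 4 groups and are shared by all genes. The 10 genes most alike had a mean r between 0.951 and 0.968: AT4G11570, AT1G67360, AT1G55210, UPB1, AT4G09620, AT2G41190, AT3G14560, AT3G19000, AT5G39250 and AT3G46450. UPB1 is UPBEAT1, a bHLH factor known from root growth. Without ARR22-ox untreated replicate 3, 4 of the 10 were still among the 10 most alike.

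The fall of these 10 genes in ARR22-ox after t-zeatin was smaller than that of the late genes, with log2 changes from -1.70 for AT1G67360 to -0.61 for AT4G09620, given as a description because the genes were chosen by their pattern. The signal of AT1G67360 averaged 167 ± 12.3 in ARR22-ox t-zeatin, 549 ± 100 in ARR22-ox untreated, 113 ± 2.99 in Col-0 t-zeatin and 174 ± 8.71 in Col-0 untreated (SD, n = 3 arrays each). On replicate 3 of ARR22-ox untreated the 10 genes were 1.21-fold to 1.51-fold lower than on replicates 1 and 2. The late genes were 4.87-fold (DFR), 2.67-fold (UF3GT) and 2.55-fold (AT4G14090) lower there. Of the flavonoid genes CHIL ranked 34th by likeness (mean r 0.932) and UGT78D2 134th (0.879), while UGT78D1 (0.674), AT1G06000 (0.373) and AT1G23390 (-0.223) were far down the order.

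**Figure D4:**
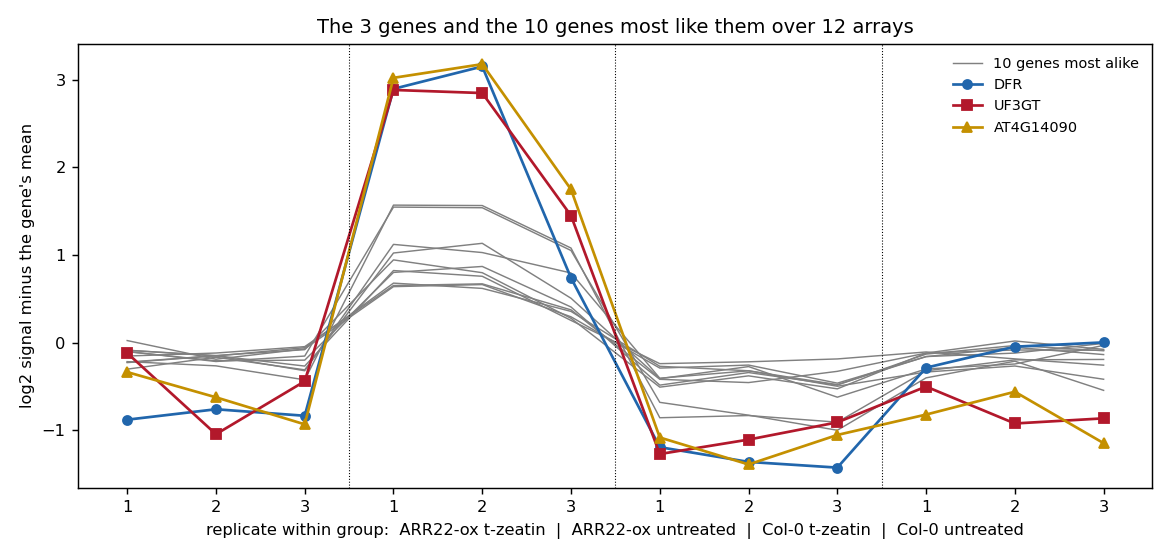
Log2 signal minus the gene's mean over the 12 arrays, for DFR, UF3GT, AT4G14090 and the 10 genes most like them (grey), with lines that only join the arrays of 1 gene. All 13 genes peak in ARR22-ox untreated, and the 3 late genes reach higher above their means there than the 10 genes do on replicates 1 and 2.

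Lists of light, nutrient, sugar, senescence and organ genes held 39 genes, of which 5 could be tested. APL3, a subunit of the first enzyme of starch synthesis and known to be induced by sugar, had signals of 114, 107 and 102 in ARR22-ox t-zeatin and 443, 504 and 188 in ARR22-ox untreated. The Col-0 signals were 50.9, 44.9 and 46.6 after t-zeatin and 31.6, 38.1 and 42.2 untreated. It was 9.38-fold higher in ARR22-ox than in Col-0 untreated (log2 difference 3.23, limma adjusted p = 1.557e-06) and fell in ARR22-ox after t-zeatin (log2 change -1.69 ± 0.28, SE; limma adjusted p = 0.0003204). These were 3.67 and -2.13 without ARR22-ox untreated replicate 3. After t-zeatin it was 2.27-fold higher in ARR22-ox than in Col-0 (limma adjusted p = 0.003419).

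HYH, a bZIP factor of light signalling, was 1.88-fold higher in ARR22-ox untreated than in Col-0 untreated (log2 difference 0.91, limma adjusted p = 0.0002058), or 0.74 without ARR22-ox untreated replicate 3, where its signal was highest at 115. Unlike the late genes, HYH did not pass in the ARR22-ox response (log2 change -0.04, limma adjusted p = 0.8308) and rose in Col-0 (0.48, limma adjusted p = 0.0147). After t-zeatin it was higher in ARR22-ox than in Col-0 (log2 difference 0.39, limma adjusted p = 0.03708). That call was lost without any of 6 single arrays (limma adjusted p up to 0.1019). WRKY53, a transcription factor of leaf senescence, ran against the late genes in the ARR22-ox response and between the untreated genotypes. Its signals were 30.4, 27.8 and 35.6 in ARR22-ox t-zeatin and 20.8, 13.9 and 28.5 in ARR22-ox untreated. In Col-0 it had 28.3, 42.7 and 32.0 after t-zeatin and 46.8, 43.3 and 40.4 untreated. That change was downwards, as for the late genes, and did not pass (log2 change -0.36, limma adjusted p = 0.2368). It was lower in ARR22-ox untreated than in Col-0 untreated (log2 difference -1.10, limma adjusted p = 0.00202), or -1.35 without ARR22-ox untreated replicate 3. In ARR22-ox it rose after t-zeatin although the groups overlapped (log2 change 0.62, limma adjusted p = 0.04384), a call lost under 4 other settings and without any of 9 single arrays (up to 0.1794). That change was 0.87 without ARR22-ox untreated replicate 3 (limma adjusted p = 0.001585). Of 7 root markers 2 could be tested. PYK10, a root-enriched glucosidase, averaged 1388 ± 53.4 in ARR22-ox t-zeatin, 1678 ± 117 in ARR22-ox untreated, 2062 ± 28.3 in Col-0 t-zeatin and 2131 ± 110 in Col-0 untreated (SD, n = 3 arrays each). It was lower in ARR22-ox untreated than in Col-0 untreated (log2 difference -0.35, limma adjusted p = 0.0008556), or -0.39 without ARR22-ox untreated replicate 3. PYK10 fell in ARR22-ox after t-zeatin (log2 change -0.27, limma adjusted p = 0.004291), or -0.23 without that array, and did not pass in Col-0 (limma adjusted p = 0.5941). After t-zeatin it was lower in ARR22-ox than in Col-0 (log2 difference -0.57, limma adjusted p = 1.452e-05). EXPA7, a root-hair expansin, averaged 41.3 in ARR22-ox t-zeatin, 38.3 in ARR22-ox untreated, 24.5 in Col-0 t-zeatin and 39.5 in Col-0 untreated. It fell in Col-0 (log2 change -0.71, limma adjusted p = 0.01011) and did not pass in ARR22-ox (0.10, limma adjusted p = 0.7037). Unlike PYK10, EXPA7 did not differ by this test between the untreated genotypes (log2 difference -0.05, limma adjusted p = 0.8662). After t-zeatin it was higher in ARR22-ox than in Col-0 (log2 difference 0.76, limma adjusted p = 0.005615). No leaf, flower or seed marker was analysed here, and the part of organ proportions in the late anthocyanin genes was not tested.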

How the data were processed

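Transcript levels were measured on 12 single-colour arrays. The deposited values are intensities per probe set on a linear scale, made by the authors with MAS5 per the submitters' processing notes (version not given in the sources used here). The mean signal after 2% was trimmed at each end was 100.008 to 100.009 on every array. Detection calls were not used. The table had 0 columns of other samples and 0 identical pairs of arrays.

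Signals were converted to log2. The 64 control probe sets and those with a mean log2 signal under the 40th percentile were dropped, which left 13648. A gene was named from a probe set paired with it alone: 13513 probe sets have 1 gene, 503 several and 8730 none. With limma 3.58.1 (R 4.3.3), 1 linear model of the 4 groups covered the 12 arrays (empirical Bayes with a variance trend, two-sided tests). Calls needed an adjusted p (Benjamini-Hochberg over the tested probe sets) under 0.05. The fit was tested on simulated data. The number of arrays limits the precision.

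The named genes are the 3 late anthocyanin genes, the measured genes of the flavonoid lists, genes of the other lists that a sentence turns on, and the 10 genes most alike over the arrays. These genes and lists were chosen with earlier results of these data known. Alternatives were an offset of 16, quantile or median scaling, other filters (none, or the 60th percentile), no variance trend, array weights, fits of only the arrays compared, and each array left out. No sequences or coordinates are given, since no genome was used here.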

Additional observations from a re-analysis of the deposited data

Results flagged for a closer look

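The t-zeatin responses of 14 named genes differed between ARR22-ox and Col-0 by the test of the difference itself (limma over all 12 arrays, adjusted p under 0.05). The log2 difference, ARR22-ox response minus Col-0 response, was -1.87 for DFR, -2.59 for UF3GT and -2.95 for AT4G14090. For the other genes of the flavonoid lists it was -2.17 for CHIL, -1.99 for UGT78D2, -2.45 for UGT78D1, -1.87 for AT1G06000 and 1.84 for AT1G23390. Among the other lists it was -2.04 for APL3, -0.52 for HYH, 0.81 for EXPA7 and 0.98 for WRKY53. Without ARR22-ox untreated replicate 3 it was -2.52 for CHIL, -2.29 for UGT78D2, -2.63 for UGT78D1, -2.25 for AT1G06000 and 1.87 for AT1G23390. It was then -2.49 for APL3, 0.87 for EXPA7 and 1.23 for WRKY53. In the fit without the filter on dim probe sets, the log2 difference was -2.37 for AT5MAT and -2.33 for TRY. That fit was chosen for them after their values were seen, and 28.3% of its probe sets were called. The calls of HYH, EXPA7 and WRKY53 were lost without that filter (adjusted p = 0.07243, 0.05244 and 0.05062), and that of HYH also without ARR22-ox untreated replicate 3 (-0.35, adjusted p = 0.05333). Removal of a single array lost the call in 10 of 12 cases for HYH and 9 for DFR (limma adjusted p up to 0.1055 and 0.06588). It was lost in 7 for WRKY53 and 5 for EXPA7 (up to 0.07474 and 0.07881). HYH also lost its call with an offset, quantile scaling and array weights (limma adjusted p = 0.05828, 0.05579 and 0.05386). The 10 genes most alike were chosen by their pattern over these arrays, so no test is given for them. In the fit with the filter, 45.6% of tested probe sets were called for this difference. PYK10 (log2 difference -0.22, limma adjusted p = 0.06545) and ARR22 (0.82, limma adjusted p = 0.1529) did not pass. Nor did UGT78D3 and BAN in the fit without the filter (limma adjusted p = 0.752 and 0.795).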

How the results depend on the processing

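For the 3 late anthocyanin genes, 15 results were recomputed in 292 alternative values: 261 kept their direction and side of the threshold, 21 lost a call, 10 gained one and 0 changed sign. The ARR22-ox response and the untreated comparison kept their calls throughout. With 1 array left out at a time, the ARR22-ox response ran from -3.85 to -2.64 for DFR, -3.40 to -2.67 for UF3GT and -3.73 to -3.01 for AT4G14090, and the untreated comparison from 1.93 to 3.13, 2.91 to 3.63 and 3.23 to 3.94. The Col-0 response ran from -1.30 to -1.16, -0.43 to -0.20 and -0.48 to -0.19, the difference of responses from -2.63 to -1.42, -3.07 to -2.34 and -3.40 to -2.68, and the genotypes after t-zeatin from 0.45 to 0.57, 0.35 to 0.82 and 0.40 to 0.69.

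DFR's fall in Col-0 lost its call with an offset (-1.02, adjusted p = 0.0689), without a filter (-1.22, adjusted p = 0.06258) and without a variance trend (-1.22, adjusted p = 0.05124). With array weights AT4G14090 passed in Col-0 (-0.41, adjusted p = 0.04475), and the genotypes after t-zeatin differed for DFR (0.50), UF3GT (0.55) and AT4G14090 (0.55). With only the t-zeatin arrays these differences were 0.50, 0.56 and 0.54, also called. The weight of ARR22-ox untreated replicate 3 was 0.06347, against 0.8426 to 1.594 for the others. With no filter, 22746 probe sets were tested. The cause of the other changes was not tested.

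Of 916 values for the other named genes, 2 changed sign: CHIL in Col-0 was 0.01 without Col-0 untreated replicate 3 and 0.0447 without Col-0 t-zeatin replicate 1 (range -0.16 to 0.04), never past the threshold. PYK10's fall in ARR22-ox after t-zeatin was lost with quantile scaling (adjusted p = 0.1213). AT4G14090 lies below the 60th percentile, so that filter gave it no value. UF3GT passed that filter, with a lowest kept mean signal of 61.09, only through its ARR22-ox untreated arrays. It averaged 43.7 in ARR22-ox t-zeatin, 28.8 in Col-0 t-zeatin and 36.4 in Col-0 untreated. Every count of called probe sets stayed within 1.5 times. No paired analysis was possible because the labels give the groups no shared replicate numbers.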
